A study of Mus musculus with 12 samples.

Results

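The genes described here encode 10 integrin chains that bind laminin, fibronectin, vitronectin or collagen: the α chains Itga2, Itga3, Itga5, Itga6 and Itgav, and the β chains Itgb1, Itgb3, Itgb4, Itgb5 and Itgb6. They were measured on 12 mouse exon arrays of primary mammary tumours. Every probeset (a small group of probes that reads 1 exon or part of an exon) annotated to 1 of these symbols alone was taken. That gave 269 of 228090 probesets and 10 of 16185 genes. The tumours grew from 4 mouse mammary carcinoma lines, 4T1, 4T07, 168FARN and 67NR, with 3 arrays per line. The hosts were female BALB/c mice, 3 months old, and received cells of 1 line in the mammary fat pad. The labels count 13 mice for 4T1, 15 for 4T07, 11 for 168FARN and 8 for 67NR, and tumours were taken when they averaged 1 to 2 cm in a group. The labels name no altered gene and no treatment in any group. The lines come from a single mammary tumour of a BALB/c mouse and are known for how far they spread: 4T1 metastasises to several organs, 4T07 reaches the lungs, 168FARN the lymph nodes, and 67NR stays at the primary site. Each group is a single cell line, so a difference between lines cannot be told apart from any other way in which those lines differ. Nothing states that the 3 arrays of a line came from separate animals, so a p-value here rests on the spread between arrays of a line, part or all of which may be technical.

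Integrins are receptors at the cell surface made of an α and a β chain, which tie the cytoskeleton to the extracellular matrix and signal in both directions across the membrane. In mammary epithelium the chains α3 and α6 with β1, and α6 with β4, hold cells on the laminins of the basement membrane, the last of them in hemidesmosomes anchored to keratin filaments. The chain α5 with β1 is the classic fibronectin receptor, αv with β1, β3, β5 or β6 reads the RGD motif in fibronectin and vitronectin, and α2 with β1 binds collagen and laminin. Itga3 and Itga6 are known for alternative exons that change the cytoplasmic tail, and Itgb4 for alternative exons in its long cytoplasmic part.

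Values are log2 probeset signals as deposited, and a gene's level is the median of its probesets on an array. The median signal of an array lay between 7.21 and 7.57. Genes of olfactory receptors, not thought to be active in tumours, served as a guide to background: 95% of these 335 genes had a mean level of at most 5.08. Epithelial markers (7 of 8 listed genes measured, none below the guide on every array) averaged 9.47 to 9.85 on the 4T1 arrays, 8.7 to 10.43 on the 4T07 arrays, 7.29 to 7.32 on the 168FARN arrays and 5.59 to 6.72 on the 67NR arrays. In 67NR tumours Epcam (5.24, 5.13 and 6.83) and Esrp1 (4.03, 4.43 and 5.15) were near or below the background guide on at least 2 of 3 arrays. Esrp1 was also below it on the 168FARN arrays (4.91, 4.83 and 4.82). The other epithelial markers measured lay above the guide on every array. Their list averaged lowest in 67NR, so the epithelial label was borne out least there. Skeletal muscle genes averaged 8.26 and 9.24 on 168FARN arrays 2 and 3, against 5.54 on 168FARN array 1 and 5.32 to 6.19 in 4T1, 4T07 and 67NR. Results on 168FARN are therefore also given with array 1 alone in its group. The spread then comes from the other 3 lines, and the lone array is assumed to vary like theirs. In bulk tumours fewer cells of a type and less RNA per cell cannot be told apart.

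Across the 4 lines, 8 of the 10 integrin genes differed in limma's moderated F-test at a Benjamini-Hochberg adjusted p under 0.05, beside 42.0% of all 15025 genes tested. The genes Itgav (adjusted p = 0.0644) and Itgb6 (adjusted p = 0.276) did not pass, although Itgav did in several alternatives (down to 0.0169). Itgb1 passed narrowly (adjusted p = 0.0476) and missed the threshold without any 1 of 11 of the 12 arrays, the exception being 4T07 array 3. Against 67NR, 4 integrin genes were higher and 1 lower in 4T1 (background: 22.3% of all genes called, 9.38% higher and 13.0% lower). In 4T07, 4 were higher and 2 lower (background 23.7%, with 11.0% higher and 12.7% lower). In 168FARN, 2 were higher and 2 lower (background 24.7%, with 13.5% higher and 11.2% lower). These 3 comparisons share the 67NR arrays. Against 168FARN, 6 were higher and 2 lower in 4T1 (background 31.2%, with 11.9% higher and 19.3% lower), and 5 were higher and 2 lower in 4T07 (background 28.3%, with 11.4% higher and 16.8% lower). Between 4T1 and 4T07 limma called none of the 10, where 2.38% of all genes were called, and 4 of the 10 had an unadjusted p under 0.05. The median log2 change of the 10 genes was 0.43 in 4T1 and 0.36 in 4T07 against 67NR, where the median of all genes was -0.04 in both. In 168FARN against 67NR it was -0.11, and the median of all genes 0.04.

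**Figure D1:**
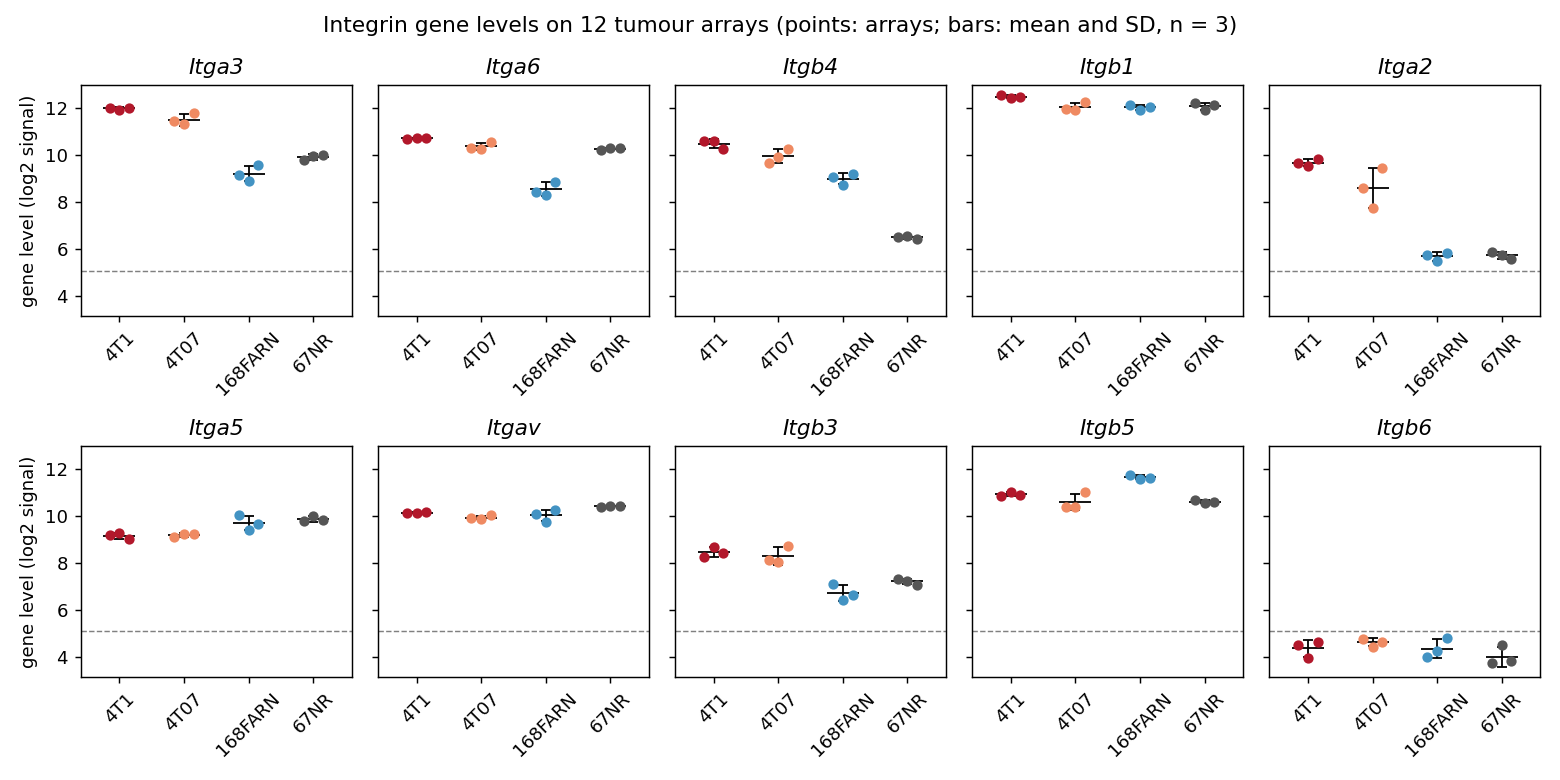
Level of each integrin gene on each of the 12 arrays (log2 signal, median of the gene's probesets), with 4T1 on the left and 67NR on the right of each panel. Points are arrays, bars are the mean and SD of 3 arrays, and the dashed line marks the background guide of 5.08. Itga2 separates 4T1 and 4T07 from 168FARN and 67NR, Itga6 is low in 168FARN, Itgb4 is low in 67NR, and Itgb6 stays under the line in all lines.

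The laminin receptors gave 3 different patterns. Itgb4 was lowest in 67NR, Itga6 was lowest in 168FARN, and Itga3 was high in 4T1 and 4T07. Itgb4 (chromosome 11, 115974725 to 116008412 in RefSeq GRCm38.p6) encodes the β4 chain, the partner of α6 in hemidesmosomes. Its level was 10.58, 10.59 and 10.26 on the 4T1 arrays and 9.66, 9.9 and 10.25 on the 4T07 arrays. It was 9.04, 8.72 and 9.2 on the 168FARN arrays, against 6.5, 6.57 and 6.44 on the 67NR arrays. All 9 arrays of the other lines lay above all 67NR arrays. The change against 67NR was 3.97 ± 0.181 (SE) in 4T1, a 15.7-fold higher signal with limma adjusted p = 1.22e-08. It was 3.43 ± 0.181 in 4T07 (10.8-fold, adjusted p = 4.28e-08) and 2.48 ± 0.181 in 168FARN (5.59-fold, adjusted p = 7.67e-07). This last change was 2.54 with 168FARN array 1 alone (adjusted p = 8.76e-05). Itgb4 was also higher in 4T1 than in 168FARN, by 1.49 (adjusted p = 4.13e-05), and in 4T07 than in 168FARN, by 0.95 (adjusted p = 0.00153). Between 4T1 and 4T07 the difference was 0.54 (95% interval 0.15 to 0.93, adjusted p = 0.18). It passed in 1 alternative, with each array centred on its median (0.58, adjusted p = 0.0421). The size depends on how the probesets are summarised: with their mean, Itgb4 was 10.5-fold higher in 4T1, 7.01-fold in 4T07 and 4.06-fold in 168FARN than in 67NR (adjusted p = 1.25e-09, 1.08e-08 and 3.2e-07). Against 67NR, 9.38%, 11.0% and 13.5% of all genes were called higher in 4T1, 4T07 and 168FARN. Of the epithelial markers, 7 of 7 were higher in 4T1 and in 4T07 and 2 of 7 in 168FARN, and none was lower. Their part in the Itgb4 result was not tested.

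Itga6 (chromosome 2, 71786886 to 71858427) encodes the α6 chain, which pairs with β1 or β4. Its level was 10.66, 10.73 and 10.7 on the 4T1 arrays and 10.31, 10.25 and 10.54 on the 4T07 arrays. It was 8.44, 8.31 and 8.86 on the 168FARN arrays, against 10.2, 10.28 and 10.29 on the 67NR arrays. The 3 168FARN arrays lay below the other 9 without overlap. In 168FARN it fell by 1.72 on the log2 scale against 67NR, a 3.29-fold lower signal (SE 0.157, limma adjusted p = 5.98e-06). With 168FARN array 1 alone, where muscle genes were low, the change was -1.82 (adjusted p = 0.000145). It was 4.47-fold higher in 4T1 than in 168FARN (2.16 ± 0.157, adjusted p = 4.74e-07) and 3.55-fold higher in 4T07 than in 168FARN (1.83 ± 0.157, adjusted p = 2.41e-06). Thus Itga6 and Itgb4, whose products form 1 receptor, moved in opposite directions in 168FARN against 67NR. In 4T1 against 67NR the Itga6 difference was 0.44 (95% interval 0.1 to 0.78), and its adjusted p of 0.0616 missed the threshold although the arrays did not overlap. That p fell below the threshold under quantile normalization (0.0223), with centred arrays (0.0221), with a variance trend (0.0269) and under several other alternatives. In 4T07 against 67NR the difference was 0.11 (95% interval -0.23 to 0.45, adjusted p = 0.688).

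Itga3 (chromosome 11, 95044475 to 95076844) encodes the α3 chain, which pairs with β1 on laminins. Its level was 12.01, 11.92 and 11.99 on the 4T1 arrays and 11.43, 11.3 and 11.78 on the 4T07 arrays. It was 9.13, 8.9 and 9.55 on the 168FARN arrays, against 9.78, 9.97 and 10 on the 67NR arrays. The arrays of 4T1 and 4T07 lay above all others, and the 168FARN arrays lay below those of 67NR. Itga3 was higher than in 67NR by 2.06 ± 0.181 in 4T1 (4.17-fold, limma adjusted p = 2.96e-06) and by 1.59 ± 0.181 in 4T07 (3.01-fold, adjusted p = 3.01e-05). In 168FARN it fell by 0.72 against 67NR (1.65-fold lower, adjusted p = 0.0105), and the change was -0.78 (adjusted p = 0.0415) with 168FARN array 1 alone. Against 168FARN it was 6.87-fold higher in 4T1 (2.78, adjusted p = 1.73e-07) and 4.96-fold higher in 4T07 (2.31, adjusted p = 1.09e-06).

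Itgb1 (chromosome 8, 128685654 to 128733579) encodes the β1 chain that α2, α3, α5, α6 and αv share. Its range over the lines was small, with means of 12.48 ± 0.05 in 4T1, 12.04 ± 0.19 in 4T07, 12.03 ± 0.1 in 168FARN and 12.06 ± 0.16 in 67NR (SD, n = 3 each). The 4T1 arrays, at 12.53, 12.44 and 12.48, lay above all 9 others, of which the highest was 12.26. It was called in 4T1 against 168FARN alone (0.45, limma adjusted p = 0.0285). That call was lost without 4T1 array 1 (0.0915), 2 (0.0597) or 3 (0.0708), without 168FARN array 2 (0.0906) or 3 (0.0594), and with 168FARN array 1 alone (0.37, adjusted p = 0.287). It was also lost with the mean (0.0767) or a median polish (0.0533) of the probesets. Against 67NR the difference in 4T1 was 0.42 (95% interval 0.11 to 0.73, adjusted p = 0.052), and it was called in several alternatives, with adjusted p-values down to 0.0099.

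Itga2 (chromosome 13, 114833081 to 114932100) encodes the α2 chain of the collagen receptor with β1. It had the sharpest split between pairs of lines. Its level was 9.67, 9.53 and 9.81 on the 4T1 arrays and 8.6, 7.73 and 9.45 on the 4T07 arrays. On the 168FARN arrays it was 5.75, 5.47 and 5.82, against 5.88, 5.74 and 5.57 on the 67NR arrays. The last 2 lines overlapped and lay not far above the background guide, so the folds against them may understate the change. Itga2 was 15.3-fold higher in 4T1 than in 67NR (3.94 ± 0.312, limma adjusted p = 1.31e-06) and 7.27-fold higher in 4T07 than in 67NR (2.86 ± 0.312, adjusted p = 2.09e-05). The changes against 168FARN were 3.99 in 4T1 (15.9-fold, adjusted p = 8.91e-07) and 2.91 in 4T07 (7.54-fold, adjusted p = 1.74e-05). Between 168FARN and 67NR the difference was -0.05 (95% interval -0.73 to 0.62, adjusted p = 0.93).

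The 4T07 arrays spread widely for Itga2, with an SD of 0.86 where 4T1 had 0.14. The same 3 arrays stood in the same order for the epithelial markers, at 9.19, 8.7 and 10.43 on arrays 1, 2 and 3. Whether the epithelial share of a tumour sets the Itga2 level was not tested. Itga2 was higher in 4T1 than in 4T07 by 1.08 (95% interval 0.4 to 1.75), which was not called (adjusted p = 0.11). Without 4T07 array 3 the difference was 1.51 and was called (adjusted p = 0.00394).

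The fibronectin receptor chain Itga5 ran the other way. Itga5 (chromosome 15, 103344286 to 103366791) encodes the α5 chain. Its level was 9.18, 9.26 and 9.01 on the 4T1 arrays and 9.08, 9.21 and 9.24 on the 4T07 arrays. It was 10.01, 9.41 and 9.66 on the 168FARN arrays, against 9.77, 10 and 9.8 on the 67NR arrays. All arrays of 4T1 and 4T07 lay below all arrays of 168FARN and 67NR. Against 67NR it fell by 0.71 in 4T1 (1.63-fold lower, limma adjusted p = 0.00654) and by 0.68 in 4T07 (1.6-fold lower, adjusted p = 0.00808). Against 168FARN it fell by 0.54 in 4T1 (adjusted p = 0.0215) and by 0.51 in 4T07 (adjusted p = 0.0306). The call in 4T1 against 168FARN was lost without 4T1 array 1 (0.0528) or 3 (0.0854) or 168FARN array 1 (0.091). That in 4T07 against 168FARN was lost without 4T07 array 1 (0.0796) or 2 (0.0584) or 168FARN array 1 (0.122) or 3 (0.0596). The changes with 168FARN array 1 alone were -0.86 in 4T1 (adjusted p = 0.013) and -0.83 in 4T07 (adjusted p = 0.0173). Fibroblast markers, of which all 8 listed were measured, averaged 9.41 to 9.68 on the 4T1 arrays, 9.36 to 9.93 on the 4T07 arrays, 10.44 to 10.69 on the 168FARN arrays and 8.56 to 9.05 on the 67NR arrays. Endothelial markers (7 of 7 measured) averaged 8.12 to 8.62 in 4T1, 8.13 to 8.71 in 4T07, 7.85 to 8.17 in 168FARN and 8.65 to 9.02 in 67NR. Their part in the Itga5 result was not tested.

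Among the chains that form αv receptors, Itgb3 and Itgb5 differed between lines and Itgav little. Itgb3 (chromosome 11, 104608000 to 104670476) encodes the β3 chain of the vitronectin receptor, also carried by platelets. Its level was 8.26, 8.66 and 8.4 on the 4T1 arrays, 8.12, 8.04 and 8.72 on the 4T07 arrays and 7.1, 6.41 and 6.62 on the 168FARN arrays. On the 67NR arrays it was 7.32, 7.2 and 7.07. The arrays of 4T1 and 4T07 lay above all others. Itgb3 was 2.37-fold higher in 4T1 than in 67NR (1.24 ± 0.214, limma adjusted p = 0.000897) and 2.14-fold higher in 4T07 than in 67NR (1.1 ± 0.214, adjusted p = 0.00213). Against 168FARN it was 3.32-fold higher in 4T1 (1.73, adjusted p = 4.94e-05) and 3-fold higher in 4T07 (1.59, adjusted p = 0.000121). For 168FARN against 67NR the difference was -0.49 (adjusted p = 0.118). Without 168FARN array 1 it was -0.68 and was called (adjusted p = 0.0383), and with that array alone it was -0.1 (adjusted p = 0.87). With 168FARN array 1 alone the changes against 168FARN were 1.34 in 4T1 (adjusted p = 0.00734) and 1.2 in 4T07 (adjusted p = 0.0152). The 5 platelet and megakaryocyte markers averaged 6.12 to 6.21 on the 4T1 arrays, 5.56 to 5.82 on the 4T07 arrays, 5.63 to 6.29 on the 168FARN arrays and 6.31 to 6.74 on the 67NR arrays. In 4T1 and in 4T07 against 67NR none of the 5 was higher and 2 were lower. Of all genes, 9.38% were higher and 13.0% lower in 4T1, and 11.0% and 12.7% in 4T07. Of the 5, Gp1ba was below the background guide on all arrays of 4T1 and 4T07. The part of platelets in the Itgb3 result was not tested.

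Itgb5 (chromosome 16, 33829665 to 33949338) encodes the β5 chain, which pairs with αv on vitronectin. Its level was 10.84, 11.02 and 10.88 on the 4T1 arrays, 10.38, 10.37 and 11 on the 4T07 arrays and 11.75, 11.56 and 11.61 on the 168FARN arrays. On the 67NR arrays it was 10.67, 10.52 and 10.59. It was highest in 168FARN, whose arrays lay above all others. Itgb5 was 2.07-fold higher in 168FARN than in 67NR (1.05 ± 0.171, limma adjusted p = 0.00066). Against 168FARN it fell by 0.73 in 4T1 (limma adjusted p = 0.00568) and fell by 1.06 in 4T07 (adjusted p = 0.000499). With 168FARN array 1 alone the change against 67NR was 1.16 (adjusted p = 0.0135). In 4T1 and 4T07 against 67NR Itgb5 differed by 0.32 and -0.01, and neither was called. The mean of the 8 fibroblast markers was also highest in 168FARN. Against 67NR 4 of 8 were higher in 4T1, 6 in 4T07 and 6 in 168FARN (background 9.38%, 11.0% and 13.5%), with none lower. Against 168FARN 2 were higher and 5 lower in 4T1 (background 11.9% and 19.3%), and likewise in 4T07 (background 11.4% and 16.8%). The part of these cells in the Itgb5 level was not tested.

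Itgav (chromosome 2, 83722303 to 83806917), which encodes the shared αv chain, had means of 10.13 ± 0.02 in 4T1, 9.92 ± 0.08 in 4T07, 10.01 ± 0.25 in 168FARN and 10.39 ± 0.03 in 67NR (SD, n = 3 each). The 67NR arrays, at 10.37, 10.39 and 10.42, lay above all 9 others. In 4T07 against 67NR it fell by 0.47 (1.39-fold lower, limma adjusted p = 0.0283). That call was lost without 4T07 array 1 (0.0552) or 2 (0.0798) and without 67NR array 1 (0.0687), 2 (0.0777) or 3 (0.0772). The difference of 168FARN and 67NR was -0.38 (adjusted p = 0.0693), which several alternatives called, with adjusted p-values from 0.0235. Itgb6 (chromosome 2, 60598292 to 60722603) encodes the β6 chain of an epithelial receptor that activates TGF-β. Its means were 4.35 ± 0.36 in 4T1, 4.61 ± 0.17 in 4T07, 4.34 ± 0.41 in 168FARN and 4 ± 0.42 in 67NR, all below the background guide, and 5 of its 22 probesets had a mean above that of the background probesets. No pair of lines was called for Itgb6. Without 67NR array 2 the difference of 4T07 and 67NR was 0.85 (adjusted p = 0.0371), between values below the guide.

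**Figure D2:**
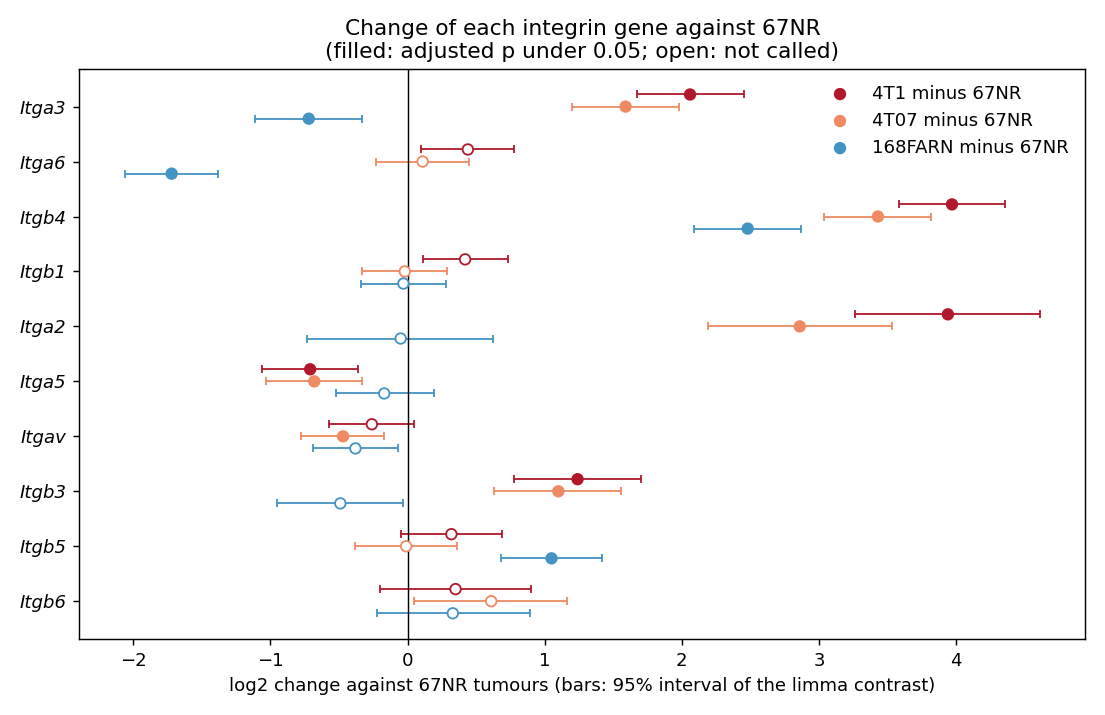
Log2 change of each integrin gene against 67NR in 4T1 (dark red), 4T07 (orange) and 168FARN (blue), with the 95% interval of the limma contrast. Filled points passed an adjusted p under 0.05. Itgb4 lies right of 0 in all 3 lines, Itga2 in 4T1 and 4T07, and Itga6 lies left of 0 in 168FARN with a change of -1.72.

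The promoters of Itga3 and Itga2, the α chains that were higher in 4T1 and 4T07, and of Itga5, which was lower, are shown for comparison of their sequence. RefSeq (GRCm38.p6) gave 9 promoter windows for 7 of the 10 genes, each from 250 bases before to 50 after a start site. Itga3 has 2 of them, and the one printed is the window farther upstream. The 3 windows lie on the minus strand, at chr11:95076665-95076964 (Itga3), chr13:114932051-114932350 (Itga2) and chr15:103366742-103367041 (Itga5), and are printed 5′ to 3′ on the gene's strand. Capitals mark 2 motifs searched on both strands, the E-box CAGGTG, which reads CACCTG on the other strand and binds repressors of epithelial genes such as Snai1 and Zeb1, and the GC box GGGCGG, which reads CCGCCC on the other strand and binds Sp1.
Itga3: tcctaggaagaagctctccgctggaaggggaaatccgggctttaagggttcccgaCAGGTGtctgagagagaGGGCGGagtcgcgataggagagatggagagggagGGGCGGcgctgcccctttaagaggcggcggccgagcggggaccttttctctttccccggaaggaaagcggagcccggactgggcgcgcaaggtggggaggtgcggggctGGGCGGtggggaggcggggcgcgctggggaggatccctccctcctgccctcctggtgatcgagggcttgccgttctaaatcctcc
Itga2: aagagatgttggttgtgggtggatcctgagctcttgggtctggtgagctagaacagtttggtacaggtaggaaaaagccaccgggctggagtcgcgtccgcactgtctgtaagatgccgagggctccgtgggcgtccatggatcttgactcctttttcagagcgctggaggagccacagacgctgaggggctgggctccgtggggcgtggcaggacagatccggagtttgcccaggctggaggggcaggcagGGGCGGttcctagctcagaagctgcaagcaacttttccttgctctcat
Itga5: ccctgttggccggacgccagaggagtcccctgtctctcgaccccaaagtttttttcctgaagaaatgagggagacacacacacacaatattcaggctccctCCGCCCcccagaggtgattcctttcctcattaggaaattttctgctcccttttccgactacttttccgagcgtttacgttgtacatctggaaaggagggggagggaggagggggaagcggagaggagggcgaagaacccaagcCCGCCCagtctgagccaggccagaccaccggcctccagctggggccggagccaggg
The printed Itga3 window held an E-box at position -195 from the start site and GC boxes at -178, -144 and -35. The other Itga3 window, at chr11:95069149-95069448, held no E-box and 1 GC box, at -246. That of Itga2 held 1 GC box, at 3, and that of Itga5 held GC boxes on the other strand at -149 and -6. Of all 32851 promoter windows in the table, 20.2% held the E-box and 35.7% the GC box. A match describes these letters only and is not evidence of binding.

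The exons were compared by setting the change of each probeset against that of the other probesets of its gene (limma's diffSplice). Calls needed an adjusted p under 0.05 and, on the log2 scale, a relative change of 1 or more. Of the 269 integrin probesets, 243 in 9 genes passed the filter on dim signals, and none of Itgb6 did. Against 67NR, 19 were called in 4T1, 20 in 4T07 and 19 in 168FARN, where 0.736%, 0.672% and 0.743% of all 110320 tested probesets were. Against 168FARN, 6 were called in 4T1 and 6 in 4T07 (background 1.26% and 0.761%). Between 4T1 and 4T07 diffSplice called none (background 0.149%), with 1 probeset at an unadjusted p under 0.05, and the splicing index called none either. The splicing index is a second test, of each probeset minus its gene's median, with its own spread for every probeset. It called 13, 12 and 15 probesets against 67NR in 4T1, 4T07 and 168FARN, of which 11, 10 and 12 were shared with diffSplice. Against 168FARN it called 8 in 4T1 and 6 in 4T07, and all 6 diffSplice calls of each were among them. No share over all tested probesets is given for the splicing index, so its counts are not set against a background. In diffSplice the probesets of a gene share 1 estimate of the spread, so a noisy probeset passes more easily there. The result of both tests is therefore given below, for most Itgb4 probesets as counts. The positions of probesets on exons were not analysed here.

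**Figure D3:**
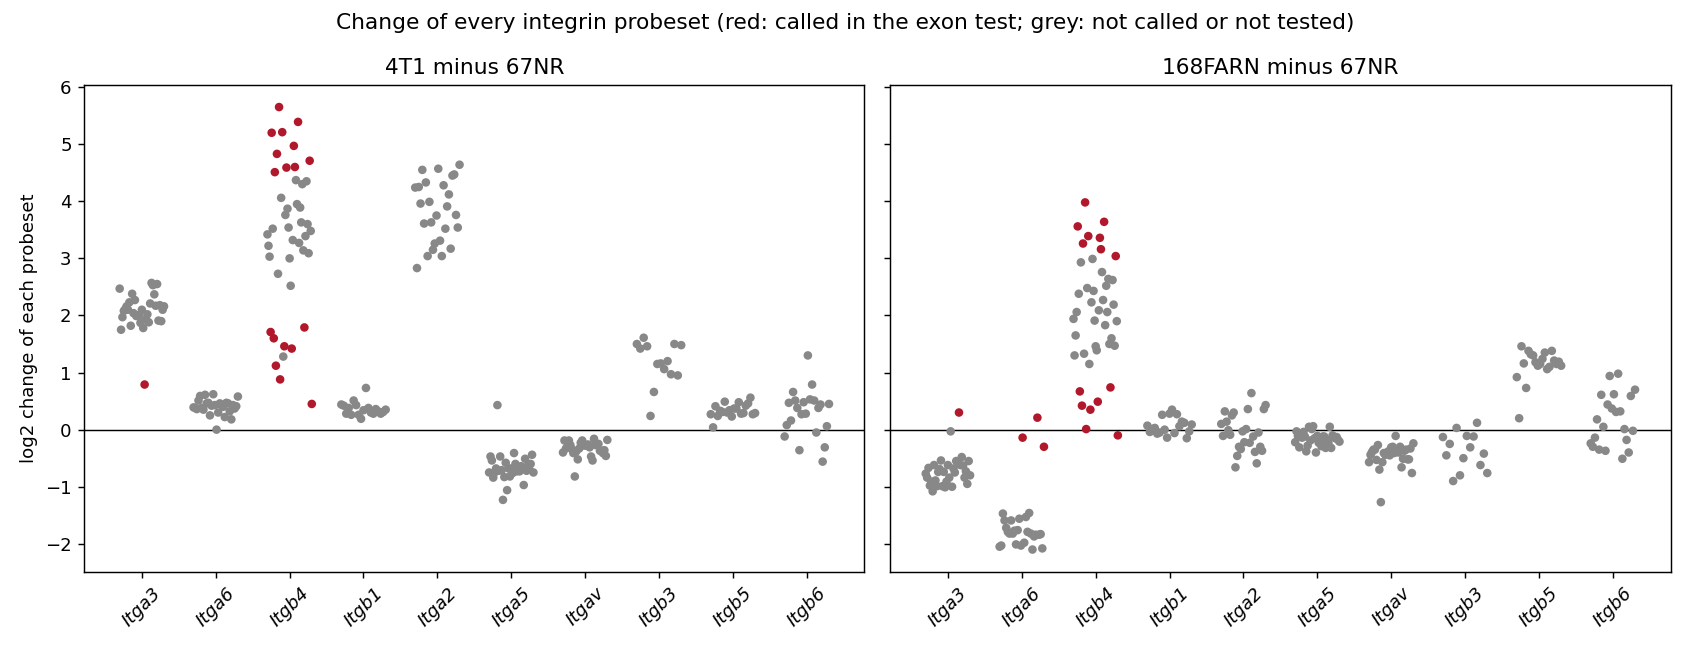
Log2 change of every one of the 269 integrin probesets in 4T1 against 67NR (left) and 168FARN against 67NR (right), by gene. Red points were called in the exon test and grey ones were not called or not tested. The probesets of Itga2 lie together, as do those of Itga3 but for 1 at 0.79 in 4T1, 3 probesets of Itga6 stay near 0 in 168FARN, and those of Itgb4 spread from 0.45 to 5.65 in 4T1.

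Most probesets of a gene followed its level. The probesets of Itga2 all changed by at least 2-fold in 4T1 against 67NR, by 2.83 to 4.64, and 32 of the 33 probesets of Itga3 did, with a highest change of 2.57, where 5.29% of all probesets with 1 symbol were that much higher. The median correlation of a probeset with its gene level over the 12 arrays was 0.986 for Itga2, 0.994 for Itga3, 0.986 for Itga6 and 0.985 for Itgb4. It was 0.972 for Itgb5, 0.954 for Itgb3, 0.913 for Itga5, 0.906 for Itgav, 0.803 for Itgb1 and 0.349 for Itgb6. The lowest single value was -0.716 in Itga5 and -0.251 in Itga6. This is a description only: the gene level is the median of the same probesets, so high values are partly built in.

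Itga6 had 28 probesets, and 25 of them were at least 2-fold lower in 168FARN than in 67NR, as were 4.57% of all probesets with 1 symbol. The other 3 stayed nearly level, and these were the Itga6 probesets that diffSplice called. Probeset 5510623 had signals of 9.09, 8.58 and 8.48 in 4T1, 8.93, 8.73 and 8.17 in 4T07 and 8.81, 8.82 and 8.63 in 168FARN, against 8.55, 8.77 and 8.3 in 67NR. The groups overlapped, whereas the gene level changed by -1.72 in 168FARN against 67NR. Its relative change was 1.9 ± 0.213 in 168FARN against 67NR (diffSplice adjusted p = 6.96e-13, splicing index adjusted p = 0.0135). Against 168FARN it was -2.13 in 4T1 (4.7e-16 in diffSplice, 0.00469 in the splicing index) and -1.91 in 4T07 (5.07e-13 and 0.012).

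Probeset 5250863 was likewise level, with means of 8.85 ± 0.39 in 4T1, 8.73 ± 0.25 in 4T07, 8.71 ± 0.47 in 168FARN and 8.85 ± 0.51 in 67NR (SD, n = 3 each). Its relative change in 168FARN against 67NR was 1.54 (diffSplice adjusted p = 1.64e-08), which the splicing index did not call (0.0581). Both tests called it in 4T1 and 4T07 against 168FARN. Probeset 5595972 had means of 8.08 ± 0.19 in 4T1, 7.54 ± 0.24 in 4T07, 7.2 ± 0.13 in 168FARN and 7.5 ± 0.5 in 67NR. It was called by both tests in all 3 comparisons with 168FARN (relative changes 1.37, -1.18 and -1.41 for 168FARN against 67NR, 4T1 against 168FARN and 4T07 against 168FARN). Without 168FARN array 2 its relative change in 4T1 against 168FARN was -0.98, under the minimum of 1. All 3 probesets lay above the background probesets, of which 95% had means up to 5.98. For these and the flat probesets below, a signal above background does not show that the probeset responds to its exon. That was not tested. In the remaining 3 comparisons the largest relative changes of Itga6 were -0.42, 0.4 and -0.27, in 4T1 against 67NR, 4T07 against 67NR and 4T1 against 4T07, and none was called.

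Itga3 had 33 probesets, and 2 were called. Probeset 5107290 had signals of 7.86, 7.39 and 8.06 in 4T1, 7.3, 7.15 and 6.98 in 4T07 and 6.55, 7.49 and 6.79 in 168FARN, against 6.54, 6.83 and 7.55 in 67NR. The 4T1 arrays lay above those of 4T07, but both lines overlapped with 168FARN and with 67NR, from which the gene level separated them. Against 168FARN its relative change was -2.03 in 4T1 (diffSplice adjusted p = 2.08e-13, splicing index 0.0238) and -2.18 in 4T07 (4.67e-15 and 0.0243). Against 67NR it was -1.32 in 4T1 and -1.47 in 4T07 (diffSplice adjusted p = 1e-05 and 3.32e-07), and the splicing index did not call either (0.208 and 0.145). Probeset 5330284 had means of 8.79 ± 0.23 in 4T1, 8.02 ± 0.51 in 4T07, 6.57 ± 0.19 in 168FARN and 6.26 ± 0.05 in 67NR. Thus it was higher in 168FARN than in 67NR by 0.3, where the gene fell by 0.72, a relative change of 1.06 (diffSplice adjusted p = 0.00139, splicing index 0.0326). That relative change was under 1 without 168FARN array 2 (0.9), without 67NR array 2 (0.99) and with 168FARN array 1 alone (0.93).

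**Figure D4:**
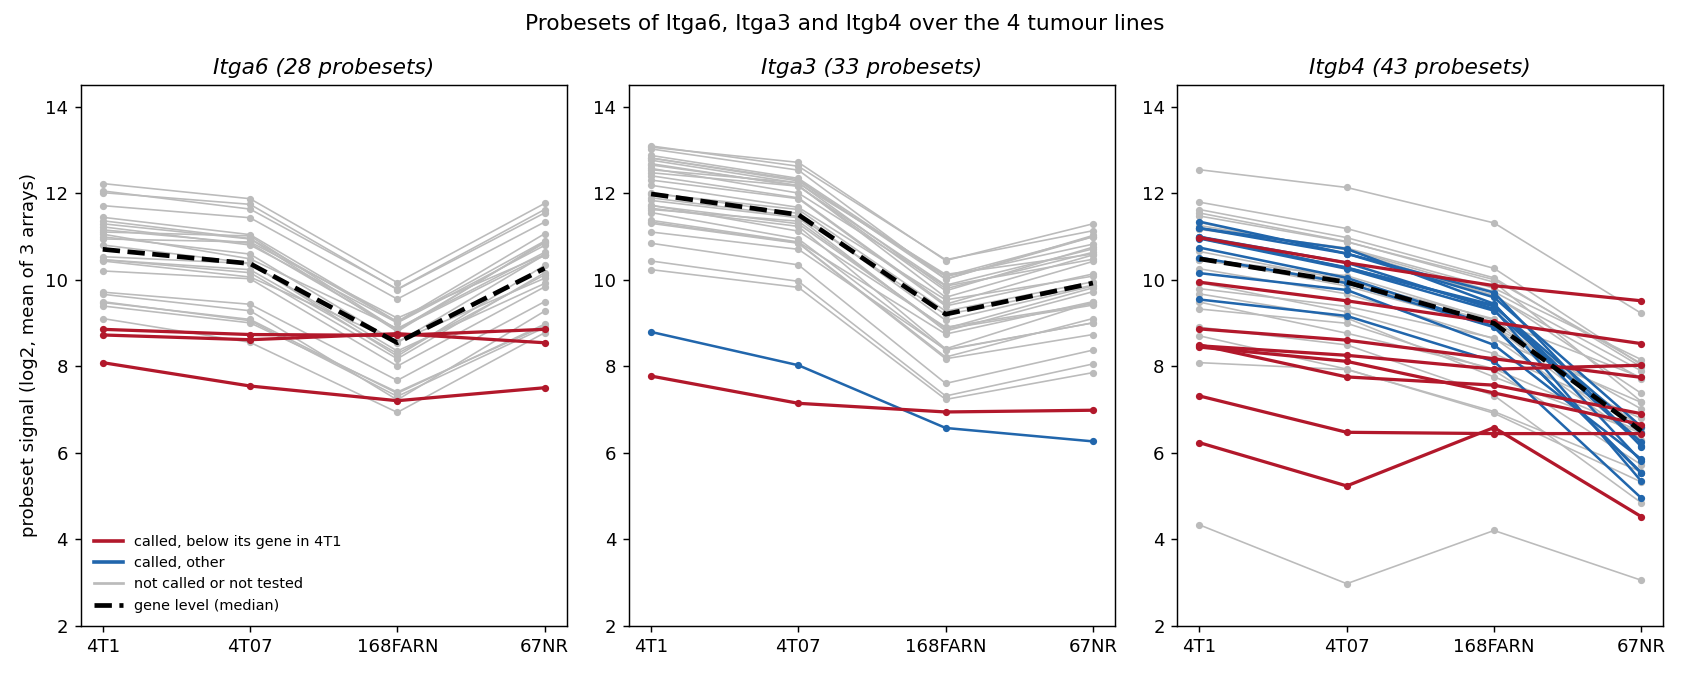
Mean signal (log2, 3 arrays) of every probeset of Itga6, Itga3 and Itgb4 over 4T1, 4T07, 168FARN and 67NR. The dashed black line is the gene level. Red lines are called probesets whose change in 4T1 against 67NR or 168FARN was below that of the gene, blue lines are other called probesets, and grey lines were not called or not tested. Itga6 probesets 5510623 and 5250863 run nearly flat past the dip in 168FARN.

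Itgb4 held most of the calls, 18 of 19 in 4T1, 18 of 20 in 4T07 and 15 of 19 in 168FARN against 67NR. All 43 of its probesets were higher in 4T1 than in 67NR, by 0.45 to 5.65 (median 3.52). Of these, 42 were higher in 168FARN than in 67NR, with a median change of 2.06. The called probesets fell on both sides of the gene. On the lower side were 8 probesets whose own change in 4T1 against 67NR was 0.45 to 1.79, and on the upper side 11 whose own change was 4.3 to 5.65. In 4T1 and in 4T07 against 67NR both tests called all 8 of the lower side, and each of these calls held under every alternative that tested the probeset. For 168FARN against 67NR both called 7 of the 8, of which 6 held throughout. On the upper side diffSplice called 10, 10 and 8 in 4T1, 4T07 and 168FARN, and the splicing index 3, 2 and 2 of those. Over all tested probesets, 0.342%, 0.325% and 0.385% were called lower than their gene in 4T1, 4T07 and 168FARN against 67NR, and 0.394%, 0.347% and 0.358% higher. The splicing index takes the median of the gene's probesets as its base, and diffSplice the mean of the other probesets.

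The most level probeset of Itgb4 was 5600759, with signals of 8.7, 8.53 and 8.19 in 4T1, 7.99, 8.12 and 8.65 in 4T07 and 8.09, 7.85 and 7.84 in 168FARN, against 8.11, 8.06 and 7.9 in 67NR. The 4T1 arrays lay above those of 67NR, by a mean of 0.45 where the gene differed by 3.97, and the other lines overlapped with 67NR. Its relative change in 4T1 against 67NR was -3.07 ± 0.288 (diffSplice adjusted p = 6.77e-19, splicing index 6.23e-07). It was -2.2 in 168FARN (6.87e-10 and 1.87e-05). Probeset 4680266 was also flat over 3 lines, with means of 7.31 ± 0.08 in 4T1, 6.47 ± 0.11 in 4T07, 6.44 ± 0.07 in 168FARN and 6.44 ± 0.14 in 67NR (SD, n = 3 each). Its relative change in 4T07 against 67NR was -2.92 (diffSplice adjusted p = 3.72e-17, splicing index 2.25e-05). Probeset 4768900 was bright in every line, with means of 10.97 ± 0.14 in 4T1, 10.39 ± 0.06 in 4T07, 9.86 ± 0.08 in 168FARN and 9.51 ± 0.13 in 67NR, and its relative change in 4T1 against 67NR was -2.03 (1.19e-08 and 0.000128).

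The other probesets of the lower side were 4422167, 4505819, 4586975, 5042760 and 5254775. Of all 8, only 4422167 had a 67NR mean under the level of the background probesets. The upper side was led by probeset 4676589, with means of 10.99 ± 0.11 in 4T1, 10.39 ± 0.26 in 4T07, 9.32 ± 0.36 in 168FARN and 5.34 ± 0.53 in 67NR (SD, n = 3 each), the last under the background probesets. Its relative change in 4T1 against 67NR was 2.26 (diffSplice adjusted p = 9.75e-11, splicing index 0.0042). The 67NR means of the 11 upper probesets were 4.95 to 6.6, and those of the 8 lower ones 4.52 to 9.51.

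Probeset 4422167 was the only call of Itgb4 in 4T1 and 4T07 against 168FARN. Its signals were 6.46, 6.24 and 5.99 in 4T1, 5.41, 4.89 and 5.4 in 4T07 and 6.71, 6.75 and 6.29 in 168FARN, against 3.91, 4.21 and 5.44 in 67NR. It was highest in 168FARN, where the gene level was lower than in 4T1 and 4T07. Its relative change was -1.79 in 4T1 against 168FARN (diffSplice adjusted p = 7.97e-07, splicing index 0.0413) and -2.24 in 4T07 against 168FARN (1.62e-10 and 0.0234). These signals lie on both sides of the level of the background probesets.

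Outside these 3 genes, 1 probeset was called. Itgb3 probeset 4656833, 1 of 14, had signals of 9.17, 9.07 and 9.57 in 4T1, 9.25, 8.72 and 8.97 in 4T07 and 9.31, 8.71 and 9.15 in 168FARN, against 8.86, 8.74 and 9.47 in 67NR. The 4 lines overlapped, while the gene level was higher in 4T1 and 4T07. Its relative change against 168FARN was -1.43 in 4T1 (diffSplice adjusted p = 0.00102, splicing index 0.0285) and -1.62 in 4T07 (0.000178 and 0.0271). With 168FARN array 1 alone the first of these was -1.3 and lost its call (adjusted p = 0.0917). In 4T07 against 67NR it was -1.19 (adjusted p = 0.0223). That call was absent in the splicing index (0.147) and lost without 4T07 array 2 (0.0924) or 3 (0.164) and without 67NR array 2 (0.0542) or 3 (0.478). DiffSplice called no probeset of Itga2, Itga5, Itgav, Itgb1 or Itgb5 in any pair of lines, with at most 4 of a gene at an unadjusted p under 0.05. Itgb5 probeset 4581508 came close, with diffSplice adjusted p = 0.00726 in 168FARN against 67NR and 0.011 in 4T07 against 168FARN. Its relative changes there, -0.99 and 0.96, were under the minimum of 1 in size. Of these 5 genes the splicing index called probesets of Itga2 alone, 1 each in 4T1 and 4T07 against 67NR and 2 in 4T1 against 168FARN.

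The ligands and partners of these integrins were counted by lists, beside the shares of all genes called against 67NR: 9.38% higher and 13.0% lower in 4T1, 11.0% and 12.7% in 4T07, and 13.5% and 11.2% in 168FARN. The effect of leaving out arrays on the named genes was examined after seeing the data, and is given where a call was lost or a change moved by over 1.5-fold. Of 11 laminin chain genes 7 were measured. In 4T1 against 67NR 2 were higher, none lower, and the median change was 0.32, with -0.04 over all genes. Lamb3, a chain of the laminin of epithelial basement membranes, had means of 7.36 ± 0.29 in 4T1, 7.07 ± 0.6 in 4T07, 6.47 ± 0.37 in 168FARN and 5.44 ± 0.21 in 67NR (SD, n = 3 each). It rose against 67NR by 1.93 in 4T1, 1.63 in 4T07 and 1.03 in 168FARN (limma adjusted p = 0.000212, 0.000767 and 0.015). The 168FARN call was lost without 168FARN array 1 (0.0618) or 67NR array 1 (0.0583). Lamc1, a chain of most laminins, rose by 0.71 in 4T1 and 0.66 in 4T07 (adjusted p = 0.00752 and 0.0112). Lama2, known from muscle basement membrane, was higher in 168FARN than in 67NR by 1.89 (adjusted p = 0.00269), with means of 7.96 ± 1.03 and 6.08 ± 0.08 and muscle genes high on 168FARN arrays 2 and 3. The change was 3.07 with 168FARN array 1 alone and 1.29 without that array (adjusted p = 0.00109). The part of muscle in the Lama2 level was not tested.

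Of 19 genes for ligands with an RGD motif or otherwise bound by these integrins, all were measured. In 4T1 against 67NR 8 were higher and none lower (median 0.3, background 9.38% higher and 13.0% lower), and in 4T07 8 were higher and 1 lower (median 0.29, background 11.0% and 12.7%). For 168FARN the counts were 2 higher and 3 lower (median 0.11, background 13.5% and 11.2%). Npnt, nephronectin of basement membranes, had means of 10.19 ± 0.18 in 4T1, 9.33 ± 0.94 in 4T07, 5.72 ± 0.08 in 168FARN and 5.34 ± 0.64 in 67NR, and rose against 67NR by 4.85 in 4T1 and 3.99 in 4T07 (limma adjusted p = 1.35e-06 and 8.01e-06). Edil3, a ligand of αv integrins, rose by 3.12 in 4T1 and 2.76 in 4T07 against 67NR, where its level of 4.32 ± 0.27 was below the background guide. Tnc, the matrix protein tenascin C, was higher than in 168FARN by 2.99 in 4T1 and 2.88 in 4T07 (adjusted p = 1.28e-05 and 2.11e-05). Ccn2, a matricellular ligand, differed between the pair of lines in which none of the 10 integrin genes was called. It had means of 9.82 ± 0.39 in 4T1 and 11.44 ± 0.27 in 4T07, and fell by 1.61 in 4T1 against 4T07 (adjusted p = 0.00142). Nid1 and Nid2, the nidogens that link laminin to collagen in basement membranes, fell by 1.36 and 1.5 in 168FARN against 67NR (adjusted p = 0.000767 and 0.000198).

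Of 8 hemidesmosome and laminin receptor partners 7 were measured, and 1 was higher and 2 lower in 4T1 against 67NR (background 9.38% and 13.0%), likewise 1 and 2 in 4T07 (background 11.0% and 12.7%). Krt14, a basal keratin, rose by 2 in both (limma adjusted p = 0.00279 in 4T1 and 0.0027 in 4T07). Cd151, the tetraspanin that binds α3 and α6 integrins, fell in 4T1, 4T07 and 168FARN against 67NR by 0.63, 0.72 and 0.65 (adjusted p = 0.0279, 0.0143 and 0.0231), and Plec, the plectin that couples β4 to keratin, fell by 0.48 in 4T1 and 0.45 in 4T07 (adjusted p = 0.0243 and 0.0334). Both genes were near the threshold: without 1 array the Cd151 call was lost in 4T1 for any of the 6 arrays of 4T1 and 67NR (adjusted p up to 0.0962), in 4T07 for 4T07 array 1 (0.0535), and in 168FARN for 168FARN array 1 (0.08) or any 67NR array (up to 0.066). The Plec call was lost in 4T1 for any 4T1 array and 67NR array 1 (0.102) or 2 (0.063), and in 4T07 for 4T1 array 1 (0.0511), 4T07 array 1 (0.0856) or 3 (0.0508) and any 67NR array (up to 0.126). Of the 8 tetraspanins listed, Cd81 rose in 4T1, 4T07 and 168FARN against 67NR by 0.89, 0.83 and 0.95 (adjusted p = 0.000494, 0.000809 and 0.000331). It was the only 1 of the 8 called higher in each of these comparisons. None was lower in 4T1. In 4T07 Cd9 and Cd63 fell by 0.54 and 0.45 (adjusted p = 0.0285 and 0.0426), and in 168FARN Cd82 fell by 0.67 (adjusted p = 0.00434). The Cd9 call was lost without 4T07 array 1 (0.0802) or 2 (0.09) or 67NR array 1 (0.0703) or 2 (0.103), that of Cd63 without any 1 of 9 of the 12 arrays (up to 0.14), and that of Cd82 with 168FARN array 1 alone (0.183).

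Of 27 adaptors and kinases of focal adhesions 24 were measured. Against 67NR 2 were higher and 8 lower in 4T1, 2 and 9 in 4T07, and 1 and 9 in 168FARN, with medians of -0.28, -0.26 and -0.27. The shares of all genes were 9.38% higher and 13.0% lower in 4T1, 11.0% and 12.7% in 4T07, and 13.5% and 11.2% in 168FARN. The 168FARN counts include its arrays 2 and 3, where muscle genes were high. No count is set beside them for its array 1 alone. Tns4, a tensin that binds β1 tails, had means of 10.47 ± 0.26 in 4T1, 10.99 ± 0.03 in 4T07, 6.16 ± 0.3 in 168FARN and 5.83 ± 0.23 in 67NR (SD, n = 3 each). It rose against 67NR by 4.64 in 4T1 and 5.15 in 4T07 (limma adjusted p = 6.86e-09 and 3.21e-09). Fermt1, the kindlin of epithelial cells, had levels of 8.39, 8.36 and 8.76 in 4T1 and of 7.25, 6.07 and 8.93 in 4T07, against 4.11, 4.33 and 4.72 in 67NR, which were below the background guide. It rose by 4.12 in 4T1 and 3.03 in 4T07 (adjusted p = 4.81e-05 and 0.000581). The 4T07 arrays spread widely, and the change there was 3.7 without 4T07 array 2 (adjusted p = 3.35e-05) and 2.27 without 4T07 array 3 (adjusted p = 0.000305). Parvb, a parvin of the complex with integrin-linked kinase, fell by 1.68 in 4T1 and 1.42 in 4T07 (adjusted p = 0.000515 and 0.00164). In 168FARN the adaptors Pxn, Tns2 and Tln1 fell by 1.18, 1.13 and 0.86 against 67NR (adjusted p = 0.000183, 0.000373 and 0.00222), and the Tln1 call was lost with 168FARN array 1 alone (-0.58, adjusted p = 0.0695).

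Of 15 other integrin genes 11 were measured. In 4T1 against 67NR 2 were higher and 2 lower (background 9.38% and 13.0%), in 4T07 2 were higher and 1 lower (background 11.0% and 12.7%), and in 168FARN 1 was higher and 5 lower (background 13.5% and 11.2%). The last counts include 168FARN arrays 2 and 3, where muscle genes were high. Itgax, a leukocyte chain, rose by 1.13 in 4T1 and 1.31 in 4T07 (limma adjusted p = 0.000361 and 0.000102), and its partner Itgb2 by 0.72 and 0.98 (0.00648 and 0.000693). Neutrophil markers (4 of 6 measured) averaged 7.16 to 7.46 on the 4T1 arrays and 8.29 to 8.47 on the 4T07 arrays. They averaged 5.24 to 6.14 on the 168FARN arrays and 4.89 to 6.33 on the 67NR arrays. Macrophage markers (6 of 6 measured) averaged 9.73 to 9.8 on the 4T1 arrays and 9.07 to 9.44 on the 4T07 arrays. Their averages were 9.35 to 9.37 on the 168FARN arrays and 10.19 to 10.23 on the 67NR arrays. The part of either cell type in these leukocyte chains was not tested. Itga8, a chain that binds nephronectin with β1, was higher in 168FARN than in 67NR by 1.4 (adjusted p = 0.000712), and Itga9, a tenascin receptor chain, fell there by 1.2 (adjusted p = 0.00148), a call lost with 168FARN array 1 alone (-0.78, adjusted p = 0.0804). Between 4T1 and 4T07, where none of the 10 genes was called, Itgb7, a chain of lymphocytes, fell by 1.33 in 4T1 (adjusted p = 0.00861) and Itga7, a laminin receptor chain, rose by 0.81 (adjusted p = 0.03). The Itgb7 call was lost without 4T1 array 1 (0.0522), and that of Itga7 without 4T1 array 1 (0.123) or 2 (0.134) or 4T07 array 1 (0.0846) or 2 (0.114).

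The genes with levels most like those of an integrin over the 12 arrays were taken from the genes that passed the F-test, by Pearson correlation, as a description. All points share the 4 lines, so r mostly reflects the line means. For Itga2 they were Tmprss11e, an epithelial serine protease (r = 0.995), Lad1, ladinin of basement membrane anchoring (0.993), and Galnt3 (0.992). For Itgb4 they were Cep170b (0.99), the receptor Ptk7 (0.99) and the ephrin Efna5 (0.984). For Itga6 they were Afap1 (0.986), the transcription factor Sox4 (0.985) and Efemp2 (0.985), and for Itga3 Ppp1r9a (0.989), Bmp1 (0.989) and Spon1 (0.988). Those of Itga5 were Abca8b (0.965), Gas6 (0.965) and the collagen receptor Ddr2 (0.952). Itgb3 was nearest to Myh10 (0.985), Arhgap6 (0.977) and Cdk18 (0.976), Itgb5 to Kremen1 (0.981), Manba (0.977) and Nagk (0.974), and Itgb1 to Eng (0.899), Esyt3 (0.893) and Aatk (0.892).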

How the data were processed

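Each deposited value is the log2 signal of a probeset on an array, a scale read from the range of the values. The summary and normalisation that the authors used are not given in the sources used here, and no value was rescaled. Per the labels' protocols, total RNA was isolated with Trizol and labelled with biotin. Arrays have no read depth, so the 3 arrays per line limit the precision. Probesets were named through the platform annotation, 207232 with 1 symbol, and symbols were updated with the RefSeq tables. A gene level is the median over at least 3 probesets. One limma (3.58.1, R 4.3.3) fit over all 12 arrays gave the F-test and the 6 pairs of lines, with Benjamini-Hochberg adjustment over 15025 genes. Exons were tested with diffSplice on probesets above the 25th percentile, in genes above the 50th percentile and with at least 4 such probesets. Fits were tested on simulated data, where diffSplice also called some unchanged probesets and the splicing index seldom did. Those calls were not split by the spread of the probeset.

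All 10 genes, every called probeset outside the upper side of Itgb4, up to 3 genes per list and pair of lines, and the 3 nearest genes are named. Of the upper side of Itgb4 only the leading probeset is named. The members and lists were chosen with earlier results of these data known. Alternatives were other gene summaries, dim-signal filters, quantile normalization, centred arrays, a variance trend, the replicate number as a block, leaving out each array, and 168FARN array 1 alone. For the genes of the lists, the last 2 were chosen after seeing the data.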

Additional observations from a re-analysis of the deposited data

How the results depend on the processing

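None of the 30 called changes of an integrin gene between 2 lines changed sign under any alternative. Of the 30 that were not called, 12 did in at least 1, all of them at most 0.33 in size as reported, and their direction is not known. The count called in 4T1 against 4T07 was 1 with arrays centred on their medians (Itgb4), 1 with a variance trend (Itgb1) and 0 to 1 when leaving out each array. The counts when leaving out each array were 7 to 8 in the F-test, 5 to 6 in 4T1 and 5 to 6 in 4T07 against 67NR, 4 to 5 in 168FARN against 67NR, and 6 to 8 in 4T1 and 6 to 7 in 4T07 against 168FARN. For probesets they were 15 to 20, 15 to 20 and 16 to 19 in 4T1, 4T07 and 168FARN against 67NR, 5 to 7 and 6 to 8 in 4T1 and 4T07 against 168FARN, and 0 in 4T1 against 4T07. The splicing index called 12 probesets in 4T07 against 67NR, 2 higher and 10 lower than their gene, where diffSplice called 10 and 10. In 4T1 against 67NR it called 3 higher and 10 lower, where diffSplice called 10 and 9. No count is given with 168FARN array 1 alone, where fewer arrays were fitted and no share of all features stands beside it.

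Of 18 pairs of same-numbered arrays, 3 had a correlation of deviations above 0.1, with a range of -0.086 to 0.191. Pairs of arrays with other numbers ranged from -0.16 to 0.224. With 3 arrays per line this cannot exclude that the numbers pair the samples. With the replicate number as a block the F-test called 8 integrin genes, and 7 were called in 4T1 against 67NR, with Itga6 (adjusted p = 0.0472) and Itgb1 (adjusted p = 0.0428) added. The counts of all other comparisons were as without the block. Levels near the background guide limit the size of a fold for Itga2 and for the upper Itgb4 probesets.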
